A study of Mus musculus with 16 samples.

Results

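The mitochondrial chromosome carries the genes for a small set of proteins that sit in the inner mitochondrial membrane and drive respiration. Examined here were 10 of its 13 protein genes, taken as the rows of the deposited counts whose symbol was mt-Nd1, mt-Nd2, mt-Nd3, mt-Nd4, mt-Nd5, mt-Co1, mt-Co2, mt-Co3, mt-Cytb or mt-Atp6. They were 10 of 53801 rows. A count in at least 1 library was present for 8 of them, and 7 passed the filter on low counts, among 10363 genes tested. The rows of mt-Co2 and mt-Atp6 were at 0 in every library, mt-Co3 never passed 3 counts, and these 3 genes were not tested.

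The libraries came from the cortex of 16 C57BL/6 mice, 1 library per animal, with 1351974 to 2119019 counts each. WT saline mice (n = 6, 3 males and 3 females) carried intact Grn, the gene for the lysosomal growth factor progranulin, and received saline. KO saline mice (n = 5, 4 males and 1 female) lacked Grn and received saline. KO AAV mice (n = 5, 3 males and 2 females) lacked Grn and received a liver-targeting adeno-associated virus at 300000000000 vector genomes into the tail vein, which encodes human progranulin joined to 8D3, an antibody fragment against the mouse transferrin receptor. Treatment lasted 8 months in all 3 groups, per the deposited sample annotation, and the animals were 12 to 12.93 months old. Grn was read at 16 to 67 counts in the WT saline libraries and at 0 in all KO libraries. Summed levels of 8 neuronal markers were 4921 to 8094 CPM (counts scaled to a common library total, adjusted with edgeR's TMM factors) over the 16 libraries, with none at 0. RNA from the whole tissue was counted, so fewer cells of a type and less RNA per cell cannot be told apart.

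Mitochondrial transcripts are made from both strands of the circular chromosome as long precursors, by the polymerase Polrmt, and are cut at the tRNA genes that lie between the protein genes. Most messengers then gain a short poly(A) tail, which in several of them completes a stop codon that the gene leaves unfinished. The nuclear genome holds inserted copies of mitochondrial DNA, some nearly identical to it. Library preparation used a QuantSeq 3' kit, which primes on the tail and reads the end of the messenger. Such a read is meant to cover the last bases of a gene only where the messenger ends with that gene. Where each messenger ends was not examined.

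The last 30 bases of each gene, as the annotation (GENCODE M21, GRCm38) gives them, are printed 5′ to 3′ on the plus strand of the mitochondrial chromosome. They show where 3′ tags are expected if the messenger ends with the gene, with the encoded stop letters in capitals.
mt-Nd1: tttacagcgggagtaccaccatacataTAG
mt-Nd2: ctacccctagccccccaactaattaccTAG
mt-Nd3: acacaaaaaggattagaatgaacagagTAA
mt-Nd4: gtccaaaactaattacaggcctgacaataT
mt-Nd5: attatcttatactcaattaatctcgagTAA
mt-Co1: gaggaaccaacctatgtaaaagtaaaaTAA
mt-Co2: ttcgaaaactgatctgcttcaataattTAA
mt-Co3: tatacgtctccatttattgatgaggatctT
mt-Cytb: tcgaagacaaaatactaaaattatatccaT
mt-Atp6: gtaagcctatatctacatgataatacaTAA
mt-Nd4, mt-Co3 and mt-Cytb ended on a single T past the last whole codon, and the other 7 genes carried a full stop codon. The 2 genes at 0 in every library had full stop codons, and so did mt-Nd1 and mt-Nd2, which were among the most counted. Unfinished ones were found in mt-Nd4 and mt-Cytb, also among the most counted, and in mt-Co3, at 0 to 3 counts per library.

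Mitochondrial genes hold no introns, and each of these is a single exon on the plus strand. The genes of complex I, the first enzyme of the respiratory chain, lay at positions 2751 to 3707 (mt-Nd1), 3914 to 4951 (mt-Nd2), 9459 to 9806 (mt-Nd3), 10167 to 11544 (mt-Nd4) and 11742 to 13565 (mt-Nd5). The genes of the catalytic core of complex IV, cytochrome c oxidase, lay at 5328 to 6872 (mt-Co1), 7013 to 7696 (mt-Co2) and 8607 to 9390 (mt-Co3). The gene of complex III, mt-Cytb, lay at 14145 to 15288, and that of the ATP synthase proton channel, mt-Atp6, at 7927 to 8607. Some genes overlap a neighbour: mt-Nd4 shares its first bases with the end of mt-Nd4l, mt-Atp6 its start with mt-Atp8, and the end of mt-Nd5 faces the end of mt-Nd6, which is on the other strand. The sources used here do not give the strand setting of the authors' counting, so reads at such overlaps cannot be assigned from these tables.

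Counts differed by position on the chromosome. In the first part mt-Nd1 was at 46000 to 78000 counts per library, mt-Nd2 at 26000 to 40000 and mt-Co1 at 7700 to 12000. From mt-Co2 through mt-Nd4l the rows were at or near 0: mt-Co2, mt-Atp8, mt-Atp6 and mt-Nd4l had no count, mt-Co3 had 0 to 3, and mt-Nd3 had 4 to 140. In the last part mt-Nd4 was at 45000 to 91000, mt-Nd5 at 7300 to 13000, mt-Nd6 at 180 to 510 and mt-Cytb at 36000 to 65000. The 11 rows between mt-Co1 and mt-Nd4, tRNA genes included, held 1264 counts over all 16 libraries, and 8 of those rows held none. The other 26 mitochondrial rows held 6490492 counts, and 3 of them held none. For a row at 0, 3 counts of the library total correspond to a share of 0.000142% to 0.000222%, and the upper end of the 95% Wilson interval to 0.000181% to 0.000284%, both for counting error only.

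The same stretch is present almost letter for letter in nuclear DNA. Each gene was divided into all its 50-base words, and those also found in an annotated transcript outside the mitochondrial chromosome were counted. That share was 100% for mt-Co2, 99.9% for mt-Co3, 99.5% for mt-Atp6 and 98% for mt-Nd3, and it was 0% for mt-Nd1 and mt-Cytb. In mt-Nd2 it was 8.19% over the gene and 31.9% over its last 300 bases, and in mt-Nd5 7.61% and 1.99%. In mt-Nd4 it was 62.2% over the gene and 0% over its last 300 bases. The near copies of mt-Nd3, mt-Nd4, mt-Co2, mt-Co3 and mt-Atp6 are the pseudogenes Gm28438, Gm28439, Gm28661, Gm28437 and Gm10925, which lie side by side between chr1:24611535 and chr1:24615565 on the minus strand of GRCm38. The sources used here do not say how the authors handled reads with more than 1 equal match, and the part of these copies in the low counts was not tested.

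**Figure D1:**
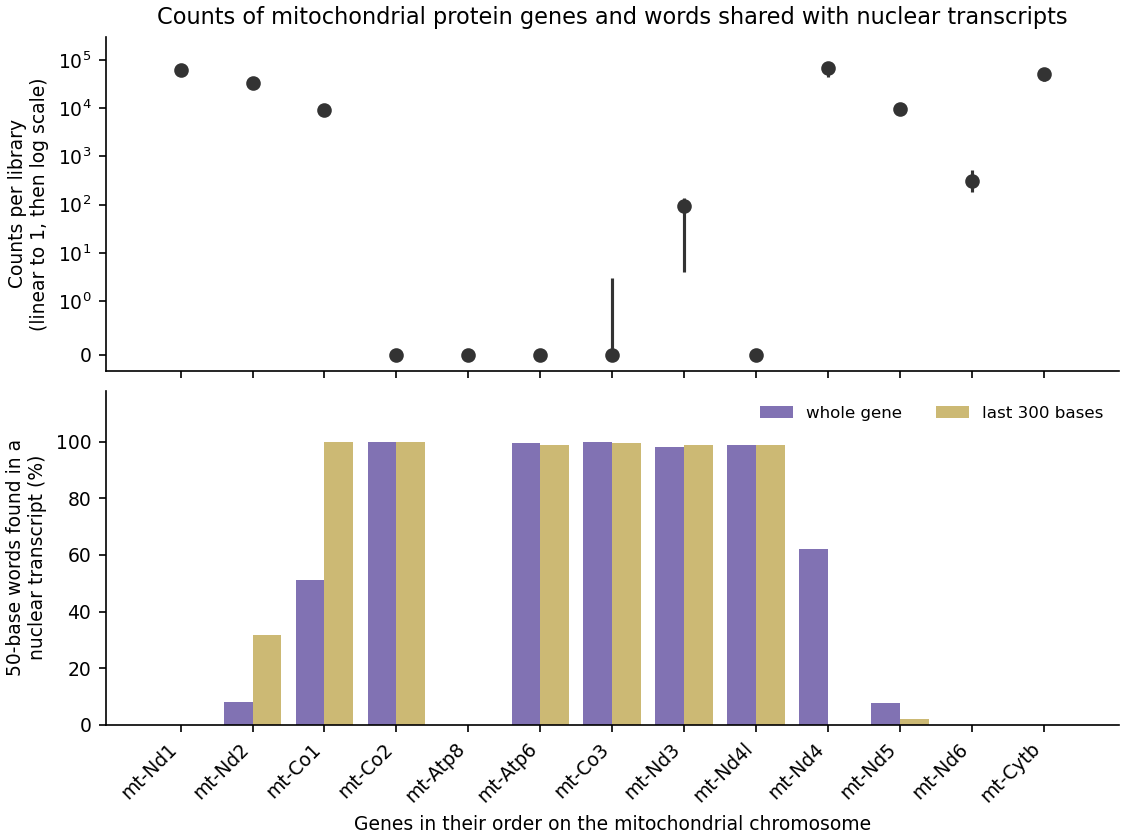
Upper panel: counts per library of the 13 mitochondrial protein genes in chromosome order, the dot marking the median and the line the range over 16 libraries, on an axis linear to 1 and logarithmic above. Lower panel: the percentage of 50-base words of each gene, and of its last 300 bases, that occur in an annotated nuclear transcript; mt-Co2, mt-Atp6, mt-Co3 and mt-Nd3 have 98% or more and few or no counts, while mt-Co1, with 100% over its last 300 bases, has 7700 to 12000.

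Stretches of 60 bases of 3 of these genes are printed with their nuclear copies to show how close they are. The copies are read on the minus strand of chromosome 1, at chr1:24612775-24613119 (Gm28438), chr1:24614885-24615565 (Gm28661) and chr1:24611535-24612410 (Gm28439). For mt-Nd3 the bases are 1 to 60 and the capital marks the single difference, T3C, counted from the first base of the gene. For mt-Co2 they are 601 to 660, with no difference. For mt-Nd4 they are 847 to 906, and the capitals mark bases past the end of the copy.
mt-Nd3: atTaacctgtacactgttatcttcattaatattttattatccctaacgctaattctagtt
Gm28438: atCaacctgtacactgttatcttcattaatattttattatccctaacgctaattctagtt
mt-Co2: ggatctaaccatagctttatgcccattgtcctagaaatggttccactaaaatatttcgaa
Gm28661: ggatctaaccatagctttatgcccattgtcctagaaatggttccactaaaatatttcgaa
mt-Nd4: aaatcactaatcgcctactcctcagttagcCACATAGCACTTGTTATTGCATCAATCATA
Gm28439: aaatcactaatcgcctactcctcagttagc
The copy of mt-Nd3 ran over 345 of its 348 bases with 1 difference. The copy of mt-Co2 covered 681 of 684 bases, that of mt-Co3 783 of 784 and that of mt-Atp6 678 of 681, each with 0 differences. The copy of mt-Nd4 covered its first 876 bases with 0 differences and left 502 bases at the 3′ end without a match. The most counted of the 10 genes, mt-Nd4, has a 3′ end past its copy, and the 3 genes at or near 0 have a copied one. Not all genes follow this order, and its part in the counts was not tested. In mt-Nd2, at 26000 to 40000 counts, 31.9% of the 50-base words in the last 300 bases are copied.

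The gene mt-Co1 did not follow that order. All 50-base words of its last 300 bases occur in annotated nuclear transcripts (430 of the gene's 1496 words in Gm29216 and 411 in Gm13340), and it was nevertheless read at 7700 to 12000 counts. Over the 492 bases that Gm29216 covers, the 2 differ at 6 positions, against 0 or 1 for the genes at or near 0. Yet 100% of the 100-base words in the last 300 bases of mt-Co1 also occur in such transcripts. For mt-Co2, mt-Co3, mt-Atp6 and mt-Nd3 this was 98.5% to 99.5%. The part of the 6 differences in the counts of mt-Co1 was not tested. The gene mt-Atp8 had no count and none of its 50-base words in another annotated transcript. It lies at 7766 to 7969, between mt-Co2 and mt-Atp6 and overlapping the start of the latter. The copies of those neighbours bound a stretch from chr1:24614651 (Gm10925) to chr1:24614885 (Gm28661). Unannotated nuclear sequence, there or elsewhere, was not searched, so whether mt-Atp8 departs from that order cannot be told.

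The nuclear copies themselves were read little. The chromosome 1 copies Gm28438, Gm28661, Gm28437, Gm10925 and Gm28439 had between 0 and 14 counts per library, and Gm29216 had 0 to 4. The copies on chromosome 2 had more: Gm13341, which shares 224 of the 635 words of mt-Co2, had 74 to 360 counts per library, and Gm13340 had 28 to 64. The counts of these copies were far below those of the 6 abundant members.

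The members' counts came almost entirely from the 6 abundant genes. All 10 members together took 13.8 ± 0.751% of the counts in WT saline (SD, n = 6), 14.8 ± 2.64% in KO saline (n = 5) and 12.5 ± 1.39% in KO AAV (n = 5). In WT saline the lowest share was 12.9%, the median 14.0% and the highest 14.8%. The KO saline libraries, replicates 1 to 5, were at 19.2%, 12.1%, 14.4%, 14.4% and 13.8%. The KO AAV libraries were at 10.5%, 11.9%, 14.0%, 13.4% and 12.8%. The groups overlapped, and KO saline replicate 1 lay above every other library. In CPM the sum was 138874 ± 11266 (WT saline), 154441 ± 34809 (KO saline) and 124480 ± 14456 (KO AAV). The 2 mitochondrial rRNAs, which are not protein genes, took 8.41% to 12.1% of the counts, and KO saline replicate 1 was inside that range at 10.5%.

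By complex, the composition of the sum was as follows. The complex I genes made up 71.0% to 76.6% of it in the 16 libraries, and the 4 most counted genes, mt-Nd4, mt-Nd1, mt-Cytb and mt-Nd2, made up 90.0% to 93.1%. The measured genes of complex IV made up 3.15% to 5.16%, nearly all of it mt-Co1. As a share of the members' sum, mt-Nd1 was 26.1 ± 1.34% (WT saline), 26.5 ± 1.27% (KO saline) and 26.8 ± 0.786% (KO AAV). The coefficient of variation over the 16 libraries was smaller for the share of the sum than for the share of the library in mt-Nd1 (4.27% against 10.8%), mt-Cytb (6.25% against 12.3%), mt-Nd2 (7.95% against 15.4%) and mt-Nd4 (8.17% against 21.4%). In mt-Nd5 it was 11.1% against 12.6%. In mt-Co1 it was larger, at 11.9% against 6.81%, and in mt-Nd3 64.9% against 62.3%. The 4 most counted genes make up most of the sum they are divided by, so a smaller spread of their share is partly built in.

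Levels per kilobase put the genes in an order that was nearly the same in every library, although a 3′ tag method counts messengers about once each whatever their length. Per kilobase of gene, mt-Nd1 was highest at 38265 ± 5389 CPM (SD, n = 16), above the next gene in 16 of 16 libraries. The next 2, mt-Nd4 at 29543 ± 7511 and mt-Cytb at 26760 ± 3949 CPM per kilobase, were within their spread of each other, with mt-Nd4 the higher in 12 of 16 libraries. Then came mt-Nd2 at 19110 ± 3690, below mt-Cytb in 16 of 16 libraries. At a lower level, mt-Co1 (3598 ± 331) and mt-Nd5 (3211 ± 488 CPM per kilobase) were again within their spread, with mt-Co1 higher in 15 of 16. At 128 ± 80.3 CPM per kilobase mt-Nd3 was below all of these in 16 of 16 libraries. Part of this order came from the division by length. In plain CPM, mt-Nd4 was above mt-Nd1 on average (40710 ± 10350 against 36620 ± 5158). Likewise mt-Nd5 was above mt-Co1 (5856 ± 890 against 5560 ± 512), both pairs within their spread.

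The values by group are given first for complex I, which passes electrons from NADH into the chain. The membrane subunit gene mt-Nd1 took 3.46% to 3.72% of the counts in WT saline, with a median of 3.62%. In KO saline replicates 1 to 5 it took 4.68%, 3.26%, 3.99%, 3.78% and 3.70%, and in KO AAV replicates 1 to 5 it took 2.92%, 3.11%, 3.64%, 3.56% and 3.47%. The WT saline libraries lay close together, KO saline reached above and below them, and KO AAV reached below them. In CPM mt-Nd1 was 36142 ± 1775, 40578 ± 7160 and 33236 ± 3212 in WT saline, KO saline and KO AAV.

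The proton-pumping subunit gene mt-Nd4 had the widest spread of the abundant genes. It took 3.40% to 4.65% of the counts in WT saline, with a median of 4.33%. In KO saline it took 6.56%, 3.19%, 4.07%, 4.18% and 3.77%, and in KO AAV 2.75%, 3.22%, 3.96%, 3.85% and 3.53%. Replicate 1 of KO saline stood apart, and its other 4 libraries lay inside or just below the WT saline range. The mean levels were 41740 ± 5825 CPM (WT saline), 45713 ± 15902 (KO saline) and 34469 ± 4990 (KO AAV).

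The other proton-pumping subunit genes were mt-Nd2 and mt-Nd5. The share of mt-Nd2 was 1.54% to 2.16% in WT saline with a median of 1.93%. In KO saline it was 2.74%, 1.92%, 2.29%, 1.92% and 1.98%, and in KO AAV 1.43%, 1.83%, 1.93%, 1.90% and 1.98%. High and low values came from replicate 1 of each KO group, and the remaining KO libraries were inside the WT saline range or just above it. The gene mt-Nd5 took 0.508% to 0.638% in WT saline with a median of 0.544%. In KO saline it took 0.713%, 0.617%, 0.540%, 0.639% and 0.617%, and in KO AAV 0.496%, 0.555%, 0.696%, 0.523% and 0.471%. The groups overlapped for both genes. In CPM, mt-Nd2 was 18932 ± 2914, 22692 ± 4838 and 18067 ± 2378, and mt-Nd5 was 5635 ± 664, 6522 ± 877 and 5455 ± 905, in WT saline, KO saline and KO AAV.

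For complex III, mt-Cytb, the electron-carrying core subunit, took 2.81% to 3.40% of the counts in WT saline with a median of 3.10%. In KO saline it took 3.89%, 2.55%, 2.88%, 3.25% and 3.15%, and in KO AAV 2.31%, 2.61%, 3.21%, 3.04% and 2.85%. Only replicate 1 of KO saline was above the WT saline range, and libraries of both KO groups were below it. In CPM mt-Cytb was 30989 ± 2408, 32852 ± 6371 and 27925 ± 3630 in WT saline, KO saline and KO AAV.

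For complex IV, mt-Co1, the subunit that holds the oxygen-reducing centre, took 0.496% to 0.585% in WT saline with a median of 0.537%. In KO saline it took 0.605%, 0.568%, 0.577%, 0.581% and 0.568%, and in KO AAV 0.540%, 0.539%, 0.589%, 0.505% and 0.477%. Its KO saline libraries were the closest to each other of any abundant member in that group, and all overlapped the range of WT saline except replicate 1. In CPM mt-Co1 was 5399 ± 386, 6039 ± 432 and 5272 ± 426 in WT saline, KO saline and KO AAV. For single libraries, the 95% Wilson interval reached at most 0.0412 percentage points to either side (mt-Nd4), and covers counting error only. The deposited counts are rounded to 2 significant digits, which moves mt-Nd5 and mt-Co1 by up to 5.00% and mt-Nd4 by up to 1.11%.

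**Figure D2:**
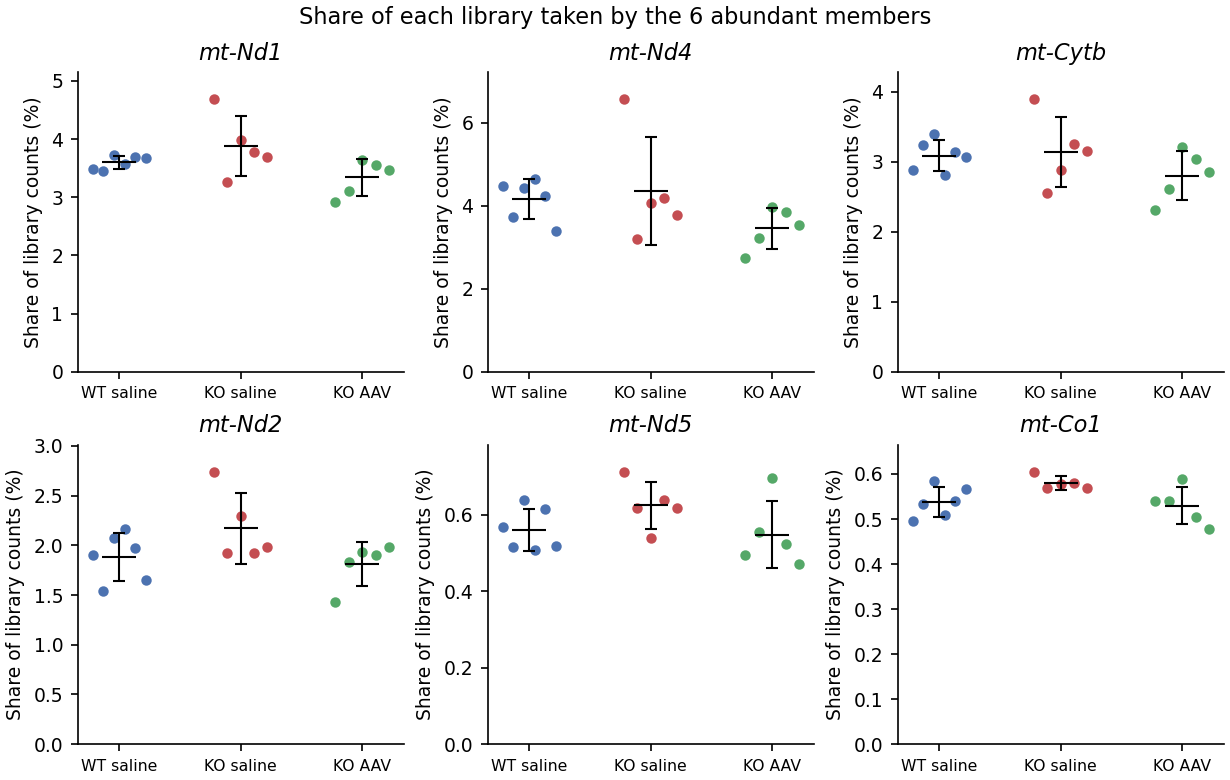
Share of library counts (percent, axes from 0) of the 6 abundant members in each library, by group, with replicates in numerical order from left to right; horizontal marks and bars are mean and SD (n = 6, 5 and 5). In all 6 panels KO saline replicate 1 is the highest library of its group (6.56% for mt-Nd4), and the 3 groups overlap in all panels.

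The complex I gene mt-Nd3 differed from the other tested members in its pattern as well as its level. In WT saline replicates 1 to 6 it was read at 14, 100, 120, 9, 91 and 59 counts. In KO saline replicates 1 to 5 it was read at 5, 100, 4, 100 and 140 counts, and in KO AAV replicates 1 to 5 at 120, 130, 110, 50 and 76. As a share of the library this ran from 0.000296% to 0.00864%. WT saline replicates 1 and 4 and KO saline replicates 1 and 3 were at 14 counts or less, the remaining 12 libraries were at 50 or more, and none lay between. In CPM it was 36.0 ± 26.1 (WT saline), 45.1 ± 39.3 (KO saline) and 54.4 ± 17.4 (KO AAV). The members' sum in those 4 libraries was at 13.8%, 14.2%, 19.2% and 14.4% of the counts. The nuclear copy Gm13341 was read there at 140, 74, 110 and 82 counts, against 110 to 360 in the other 12 libraries. RNA integrity numbers of those 4 libraries were 9.2, 9.3, 9.3 and 9.3. Over all tested genes, their deviations from the group means correlated between the WT saline and KO saline libraries at 0.19, 0.23, 0.47 and 0.54. Pairs of other libraries from different groups reached 0.44. What sets them apart was not tested.

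**Figure D3:**
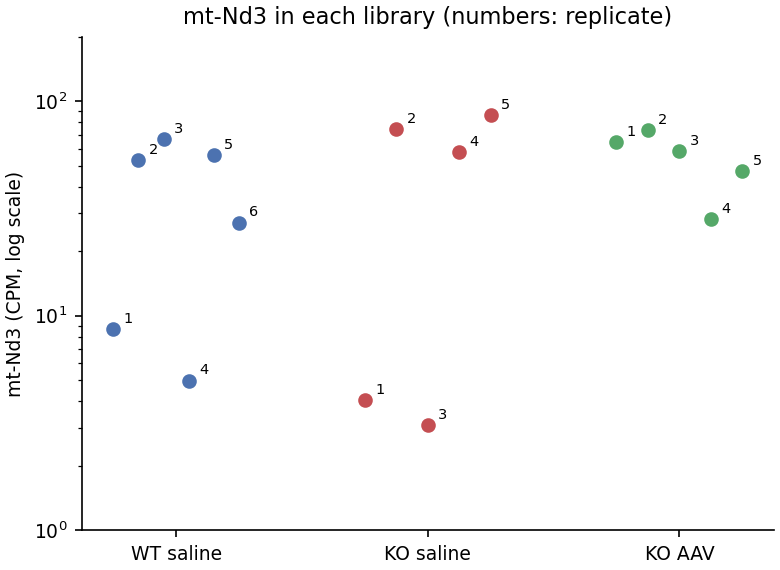
Level of mt-Nd3 in CPM on a logarithmic axis in each library, by group, with replicate numbers beside the points. Replicates 1 and 4 of WT saline and 1 and 3 of KO saline lie between 3.09 and 8.68 CPM, and the other 12 libraries between 27.2 and 86.5 CPM.

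The remaining members gave little to compare. The complex IV gene mt-Co3 was read at 2 counts in WT saline replicate 1 and at 0 in the other WT saline libraries. In KO saline it had 0, 2, 0, 0 and 1 counts, and in KO AAV 2, 3, 1, 0 and 1. All libraries were at or under the floor of 3 counts, so no fold is given. The complex IV gene mt-Co2, whose protein receives electrons from cytochrome c, and mt-Atp6 were listed at 0 in all 16. Differences of these 3 genes between groups were not detectable in these tables.

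The comparison of KO saline with WT saline asks what loss of Grn does. No member passed the test: 0 of 7 tested members were called at an adjusted p under 0.05 (edgeR quasi-likelihood, Benjamini-Hochberg), where 0.0482% of all tested genes were. All 7 had a fitted log2 change above 0, with a median of 0.17, beside 5277 of 10363 genes above 0 and a median of 0.00 over all genes. The fitted changes (± SE) were 0.26 ± 0.14 for mt-Nd2, 0.21 ± 0.12 for mt-Nd5, 0.17 ± 0.11 for mt-Nd1, 0.16 ± 0.09 for mt-Co1, 0.13 ± 0.16 for mt-Nd4 and 0.08 ± 0.12 for mt-Cytb. For mt-Nd3 it was 0.36 ± 0.57. The adjusted p of each was 0.994 (edgeR), 0 had an unadjusted p under 0.05 (4.11% of all tested genes did), and DESeq2 and limma-voom also called 0. The groups overlapped in CPM for each, where 0.396% of tested genes had groups that did not. The 95% interval of the log2 change was -0.02 to 0.55 for mt-Nd2 and -0.06 to 0.39 for mt-Nd1. Without KO saline replicate 1 the values were 0.12 for mt-Nd2, 0.05 for mt-Nd1, -0.11 for mt-Nd4 and -0.04 for mt-Cytb, the last 2 with the opposite sign.

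The comparison of KO AAV with KO saline asks what the virus does in knockout animals. Again 0 of 7 tested members were called, against 0.0193% of all tested genes. A fitted log2 change below 0 was found for 6 of the 7, with a median of -0.26, beside 5426 of 10363 genes below 0 and a median of -0.01 over all genes. The fitted changes were -0.41 ± 0.17 for mt-Nd4, -0.33 ± 0.14 for mt-Nd2, -0.29 ± 0.11 for mt-Nd1, -0.26 ± 0.12 for mt-Nd5, -0.23 ± 0.13 for mt-Cytb and -0.20 ± 0.09 for mt-Co1. For mt-Nd3 it was 0.24 ± 0.58. The adjusted p of each was 1.00 (edgeR), and DESeq2 and limma-voom also called 0. An unadjusted p under 0.05 with a lower level was seen for 4 members (mt-Nd1, mt-Nd4, mt-Nd2 and mt-Nd5, the last at the limit), where 1.62% of all tested genes had one and 2.49% had an unadjusted p under 0.05 in either direction. The members share their precursor RNA and their libraries, so these 4 are not independent. Without KO saline replicate 1 none of the 7 had an unadjusted p under 0.05 (2.54% of tested genes did), mt-Nd4 was at -0.17 ± 0.13 and mt-Nd2 at -0.19 ± 0.13. Without KO AAV replicate 1 the count was also 0, with mt-Nd4 at -0.31, mt-Nd2 at -0.23 and mt-Cytb at -0.15. It was 2 without KO AAV replicate 2 and 2 without KO AAV replicate 4. The count was higher, at 5, without KO AAV replicate 3. It was 4 without KO saline replicate 2, where mt-Cytb was counted and mt-Nd5 was not. It was also 4 without WT saline replicate 1, where mt-Co1 was counted and mt-Nd5 was not. It was 3 without any other single library. These left-out counts omit a member at the limit, as mt-Cytb was without KO AAV replicate 3. By that rule the fit with all libraries keeps mt-Nd1, mt-Nd4 and mt-Nd2 and loses mt-Nd5. The groups overlapped in CPM for all 7, where 0.502% of tested genes had groups that did not.

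The comparison of KO AAV with WT saline asks what differs between treated knockouts and intact animals. It called 0 of 7 members, against 0.00965% of all tested genes. Log2 changes below 0 were found for 6 of 7, with a median of -0.07, beside 5288 of 10363 genes below 0 and a median of -0.01. The fitted changes were -0.28 ± 0.17 for mt-Nd4, -0.15 ± 0.12 for mt-Cytb, -0.12 ± 0.11 for mt-Nd1, -0.07 ± 0.14 for mt-Nd2, -0.05 ± 0.12 for mt-Nd5 and -0.03 ± 0.09 for mt-Co1, and 0.59 ± 0.56 for mt-Nd3. Adjusted p ran from 0.881 to 0.950 (edgeR), 0 had an unadjusted p under 0.05 (4.02% of all tested genes did), and DESeq2 and limma-voom also called 0. Without KO saline replicate 1, mt-Nd4 alone had one (0.0273 in edgeR, adjusted p = 0.857), where 4.36% of tested genes did. The groups overlapped for all 7, where 0.318% of tested genes had groups that did not. The 3 comparisons share their groups in pairs, so their values are set side by side and not counted as separate evidence.

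**Figure D4:**
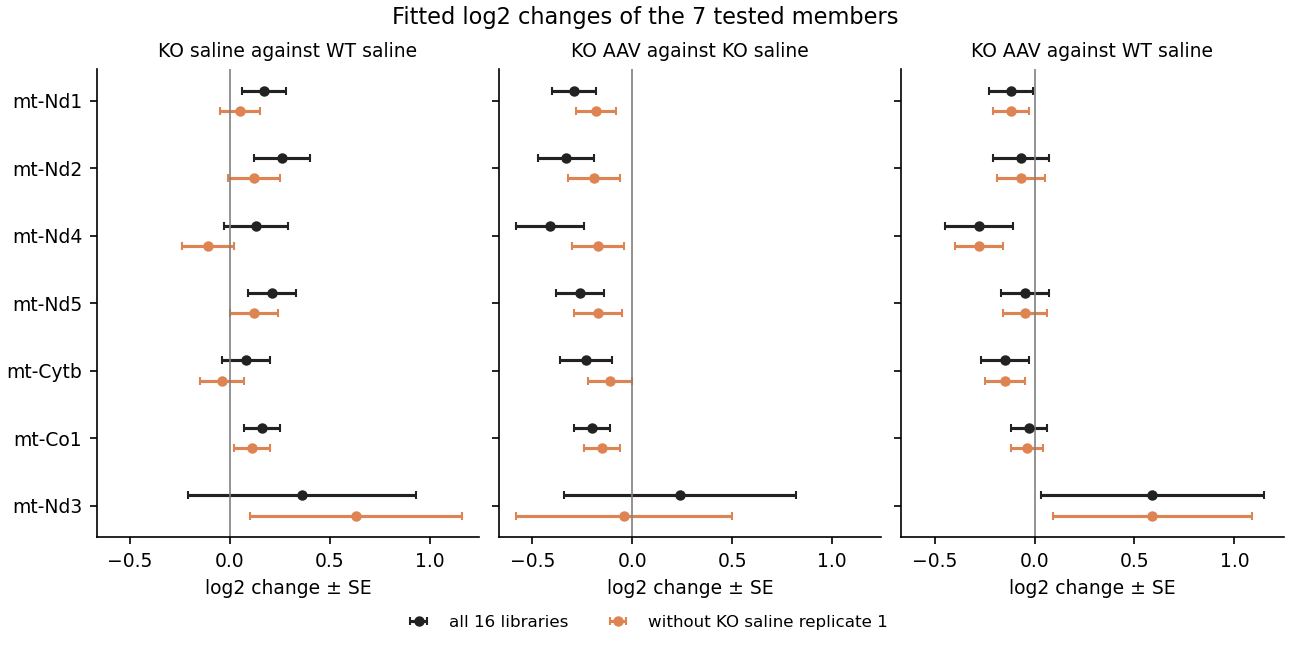
Fitted log2 change ± SE of the 7 tested members in the 3 comparisons, from edgeR with all 16 libraries (black) and without KO saline replicate 1 (orange), on 1 common horizontal scale. Without that library mt-Nd4 moves from 0.13 to -0.11 in the first comparison and from -0.41 to -0.17 in the second; mt-Nd3 has by far the widest errors.

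Several other measures of KO saline replicate 1 were also at the edge. Its members' sum was 214828 CPM, against 126579 to 149838 in the other KO saline libraries, and its TMM factor was the smallest of the 16 at 0.903. Its total of 1387658 counts and its RNA integrity number of 9.3 were inside the range of the others. It held the highest sum of 7 nuclear-retained RNAs, at 3375 CPM, in a group that started at 1455. It also held the highest sum of 8 astrocyte markers, at 12079 CPM, in a group that started at 9290. Its sum of 8 neuronal markers was the lowest of its group, at 5098 CPM where the highest was 7930. The same held for 8 endothelial markers, at 482 CPM where the highest was 609. Both were inside the range over all libraries (4921 to 8094 and 454 to 658 CPM). Its oligodendrocyte, microglial and erythrocyte sums were inside the range of its group. Its summed nuclear complex I subunits were 7577 CPM, inside the range of 6339 to 7648 over all libraries. The part of these in its high mitochondrial share was not tested.

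The other rows of the mitochondrial chromosome were not called either. The tested rRNAs mt-Rnr1 and mt-Rnr2 had log2 changes of 0.26 ± 0.13 and 0.20 ± 0.12 between KO saline and WT saline, and -0.18 ± 0.13 and -0.03 ± 0.12 between KO AAV and KO saline. For mt-Nd6, the complex I gene on the other strand, they were 0.08 ± 0.17 and -0.36 ± 0.18. Of the 10 tested tRNA genes, 9 had a log2 change below 0 between KO saline and WT saline, from -0.46 ± 0.33 for mt-Te to 0.06 ± 0.25 for mt-Ti, where all 7 members were above 0. Between KO AAV and KO saline 5 were above and 5 below, and between KO AAV and WT saline all 10 were below, from -0.61 to -0.02. Of the 3 tested nuclear copies, 0 were called, and Gm13340 was at 0.41 ± 0.19 and -0.35 ± 0.20.

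Most subunits of the same complexes are encoded in the nucleus. Of 75 tested nuclear subunits of complexes I, III and IV and of the ATP synthase, 0 were called in any of the 3 comparisons. In KO saline against WT saline 16 had a log2 change above 0 and 59 below, with a median of -0.09, where all 7 members were above 0. After virus, in KO AAV against KO saline, 42 were above and 33 below, with a median of 0.03, where 6 of 7 members were below 0. In KO AAV against WT saline 22 were above and 53 below, with a median of -0.10. The lowest p in KO saline against WT saline belonged to Ndufab1 (0.40 ± 0.17), the mitochondrial acyl carrier protein of complex I, and to Cox7a2l (-0.36 ± 0.17), which takes part in joining complexes III and IV, both with an adjusted p of 0.994 (edgeR). For KO AAV against KO saline they belonged to Ndufv3 (-0.45 ± 0.19) and Ndufab1 (-0.37 ± 0.17), both with an adjusted p of 1.00 (edgeR). Complex II has no mitochondrially encoded subunit, and of its 4 nuclear subunits 0 were called.

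Genes that make and handle mitochondrial RNA were not called in any comparison. Of 9 tested genes of mitochondrial DNA copying and transcription, 2 were above 0 and 7 below in KO saline against WT saline. Between KO AAV and KO saline 5 were above and 4 below, and Polrmt, the mitochondrial RNA polymerase, was at -0.71 ± 0.25 (adjusted p = 1.00, edgeR). Of 17 tested genes of mitochondrial RNA processing and stability, 5 were above 0 and 12 below in the latter comparison. In it Lrpprc, which stabilises mitochondrial messengers, was at -0.47 ± 0.20 and Mtpap, the mitochondrial poly(A) polymerase, at 0.27 ± 0.17 (adjusted p = 1.00 for each, edgeR). Trmt10c, a subunit of the enzyme that cuts tRNA 5′ ends, was at 0.55 ± 0.32 in KO saline against WT saline (adjusted p = 0.994, edgeR). Of 10 tested mitochondrial translation factors, 7 were above 0 between KO saline and WT saline, and 3 between KO AAV and KO saline.

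Among the cell type markers, Gfap, the intermediate filament of astrocytes, rose in KO saline against WT saline (log2 change 1.73 ± 0.18, adjusted p = 3.86e-05, edgeR) and fell in KO AAV against KO saline (-1.21 ± 0.19, adjusted p = 0.00860, edgeR). The microglial protease gene Ctss rose in the first of these (0.64 ± 0.09, adjusted p = 0.00221, edgeR) and was at -0.49 ± 0.10 in the second (adjusted p = 0.231, edgeR). The sum of 8 microglial markers was 617 ± 39.4 CPM (WT saline), 801 ± 98.6 (KO saline) and 655 ± 45.1 (KO AAV), ranging from 559 to 678, 718 to 948 and 624 to 735. The sum of 8 astrocyte markers was 9699 ± 654, 10240 ± 1152 and 9645 ± 621 CPM. Neuronal sums were 6396 ± 1221, 6398 ± 1225 and 6537 ± 734 CPM. No marker of these lists was at 0 over the 16 libraries. Their part in the members' values was not tested.

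The 5 tested nuclear genes whose level was most like the members' summed CPM over the 16 libraries were Fam210b (Pearson r = 0.87, Spearman rho = 0.53), D430019H16Rik (0.81 and 0.77), Ssbp4 (0.80 and 0.72), Lrpprc (0.80 and 0.82) and 1110059E24Rik (0.80 and 0.70), named as in the annotation. These are descriptions of 16 libraries that share their scaling with the sum, and the genes were picked as the highest of all. Without KO saline replicate 1 and KO AAV replicate 1, the libraries farthest from the median of the sum, r was 0.44 for Fam210b, 0.65 for D430019H16Rik, 0.64 for Ssbp4, 0.72 for Lrpprc and 0.53 for 1110059E24Rik. The likeness of Fam210b thus rested largely on those libraries, and Fam210b was read at only 24.0 counts per library on average.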

How the data were processed

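The animals were perfused before the brains were frozen, and QuantSeq 3' FWD libraries carried unique molecular identifiers against PCR duplicates, per the labels' protocols. Tools named in the submitters' processing notes are STAR, FastQC 0.11.5, MultiQC 1.0, edgeR 3.40.2 and R 4.2, and the build is GRCm38.p6. The sources used here name no counting program, strand setting, annotation or treatment of reads with several matches. Raw counts per gene were deposited by the authors, all 267604 values above 0 with at most 2 significant digits. They also deposited a CPM signal scaled by library size, and a normalization factor per library, which is a ratio, both used in alternatives only. Column sums were within -0.269% to 0.284% of the deposited library sizes.

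Genes were filtered with filterByExpr and TMM-scaled, and 1 edgeR 4.0.16 quasi-likelihood fit (R 4.3.3) over 16 libraries with group as factor gave 3 comparisons, with Benjamini-Hochberg adjustment over 10363 genes and a threshold of 0.05. The fit was also run on simulated counts drawn with its own estimated dispersions. Those counts were not rounded to 2 significant digits and were given no outlying library, so the run does not cover these features of the data. CPM were computed from the counts and TMM-scaled totals. Sums over members got no test. Alternatives used limma 3.58.1, DESeq2 1.42.0, other scalings, filters, covariates and left-out libraries. Sequences and positions are from GENCODE M21 transcripts (GRCm38), compared word by word. Named genes are all members, the other mitochondrial rows and nuclear copies, Grn, and, of each list, the called genes and those of lowest p, of which the text gives the called genes and some of the others. Of 211 list entries 211 matched. The members and lists were chosen with earlier results of these data known. Replicate numbers do not pair animals by the labels.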

Additional observations from a re-analysis of the deposited data

Results flagged for a closer look

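Of 24 sets of values (8 quantities in 3 groups) examined for a library far from the rest of its group, 3 held one. Chance flags about 1 in 20 independent sets. These sets share their libraries, and the members' sum contains mt-Nd4, so the 3 flags cannot be weighed against that rate. In KO saline, mt-Nd4 of replicate 1 was at 73410 CPM, where the other 4 libraries were at 33349 to 42457. The members' sum of the same library was 214828 CPM, where the others were at 126579 to 149838. In KO AAV, mt-Nd2 of replicate 1 was at 13923 CPM, where the others were at 18609 to 19936, and the members' sum of that library was the lowest of its group at 101701 CPM. The cause of these values was not tested.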

How the results depend on the processing

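In 14 alternatives other than leaving out a library, and in 16 fits that each left out 1 library, 0 of the tested members were called in any comparison. The median log2 change of the members stayed at 0.11 to 0.22 without 1 library in KO saline against WT saline, at -0.31 to -0.17 in KO AAV against KO saline and at -0.14 to -0.02 in KO AAV against WT saline. Some single members changed sign. In KO saline against WT saline mt-Nd3 was at -0.04 with limma-voom, at -0.19 and -0.14 with limma on log2(deposited CPM + 0.25) and + 1, and at -0.02 to 0.64 without 1 library, mt-Nd4 at -0.11 to 0.23 and mt-Cytb at -0.04 to 0.15 without 1 library. In KO AAV against KO saline mt-Nd3 was at -0.04 to 0.62 without 1 library, at 1.07 with limma-voom and at 1.25 and 1.15 with limma on the deposited CPM, against 0.24 in edgeR. In KO AAV against WT saline these 3 gave 1.03, 1.05 and 1.01, against 0.59 in edgeR. There, libraries with an RNA integrity number of 9 or more gave 0.02 for mt-Nd5 and 0.01 for mt-Co1, and leaving out 1 library gave -0.12 to 0.02 for mt-Nd2, -0.14 to 0.02 for mt-Nd5 and -0.07 to 0.01 for mt-Co1. The cause was not tested.

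Genes called over the whole table, 5, 2 and 1 in the order of the comparisons, became 16, 4 and 2 with no count filter. In KO AAV against KO saline the count was 1 with a mean CPM of at least 5, 0 and 1 with limma on the deposited CPM at the lower and higher pseudocount, 1 with an RNA integrity number of 9 or more, and 1 to 2 without 1 library. Replicate numbers were not treated as pairs. Of 15 same-numbered pairs, 5 had a correlation of deviations over 0.1 (-0.43 to 0.44, median -0.05). Differently numbered pairs ran from -0.50 to 0.54. With the replicate number as a block, 3, 1 and 1 genes were called, and the members' medians were 0.17, -0.27 and -0.10. Per 100 nuclear counts, the members' sum was 18.1, 19.9 and 16.3 (WT saline, KO saline, KO AAV), by its construction a larger number than the share of all counts. The depth of 1351974 to 2119019 counts sets the lowest share that could be read for the rows at or near 0 (mt-Co2, mt-Atp6 and mt-Co3). Its part in their low counts was not tested.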
